A study of Mus musculus with 8 samples.

Results

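The CXC chemokines and their receptors were followed in the pancreas of lean and obese mice. The genes were the ligands Cxcl1, Cxcl2, Cxcl5, Cxcl9, Cxcl10, Cxcl12 and Cxcl16 and the receptors Cxcr2, Cxcr4 and Ackr3, chosen by symbol, and 10 of 10 were found among 15047 genes. RNA-Seq was made from pancreas tissue of 8 male mice. The sources used here do not say whether the whole organ or the lesion was taken. Lean mice were C57BL/6 WT on a low-fat diet (LFD, n = 3), diet-induced obese mice were C57BL/6 WT on a high-fat diet with 60% of calories from fat (HFD, n = 3), and genetically obese mice were leptin-deficient C57BL/6J; ob/ob on standard chow (n = 2). Feeding started when the mice were 4 weeks old and the LFD and HFD lasted for 10 weeks. As the study describes these samples, all mice carried a transplant of mT organoids, which were grown from mouse pancreatic tumors, so each sample holds host and transplanted cells in an unknown ratio. The sample labels do not mention this transplant. The ob/ob mice differed from LFD mice in genotype and in chow, and these cannot be told apart.

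CXC chemokines are small secreted proteins that guide leukocytes through G protein-coupled receptors. Cxcl1, Cxcl2 and Cxcl5 act on Cxcr2 and draw neutrophils, while Cxcl9 and Cxcl10 are induced by interferons and draw T and NK cells through Cxcr3. Cxcl12 is made by stromal cells and binds Cxcr4, which signals, and Ackr3, which mainly takes the ligand up, and Cxcl16 is made as a membrane protein that is shed from the cell surface and binds Cxcr6.

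Each value is an rlog value, which is a normalized read count on a log2 scale, so a difference of 1 is a doubling on that scale. The transformation shrinks differences of genes with few reads, so for them it need not be a doubling of reads. The rlog values ran from 0.466 to 24.3, with a median between 7.09 and 7.25 in each mouse, and Pearson's r between mice across genes was 0.884 to 0.982. They are not divided by gene length and were not compared between genes. The read depth of the mice is unknown. The sample was bulk tissue, so fewer cells of a type and less RNA per cell cannot be told apart.

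The ligand genes lie in clusters, and the stretches just upstream of Cxcl1, Cxcl2 and Cxcl10 are shown because inflammatory and interferon signals are known to act there. In GRCm38, Cxcl5 lies at chr5:90759360-90761624, Cxcl1 at chr5:90891241-90893115 and Cxcl2 at chr5:90903871-90905938, all on the plus strand, with 10755 bases between Cxcl1 and Cxcl2. Cxcl9 at chr5:92321347-92328079 and Cxcl10 at chr5:92346638-92348889 lie on the minus strand of the same chromosome, 18558 bases apart. The other genes lie elsewhere, Cxcl12 at chr6:117168535-117181367 (plus strand), Cxcl16 at chr11:70453983-70459984 (minus), Cxcr2 at chr1:74153989-74161246 (plus), Ackr3 at chr1:90203980-90216751 (plus) and Cxcr4 at chr1:128588199-128592293 (minus). The sequences are from RefSeq (GRCm38.p6), 5′ to 3′ on the strand of the gene, end just before the annotated gene, and carry in capitals the matches on either strand to 3 motifs, namely GGG, 2 of any base and TTTCC (strict NF-kB type), GGGA, 4 of any base and CC (loose NF-kB type), and TTTC, 2 of any base and TTTC (ISRE type).
Cxcl1, chr5:90890995-90891240, plus strand: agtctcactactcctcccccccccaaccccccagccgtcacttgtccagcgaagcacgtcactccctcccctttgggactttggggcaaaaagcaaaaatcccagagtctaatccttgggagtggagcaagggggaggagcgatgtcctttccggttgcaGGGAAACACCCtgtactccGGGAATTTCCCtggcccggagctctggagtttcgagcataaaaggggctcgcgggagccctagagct
Cxcl2, chr5:90903649-90903870, plus strand: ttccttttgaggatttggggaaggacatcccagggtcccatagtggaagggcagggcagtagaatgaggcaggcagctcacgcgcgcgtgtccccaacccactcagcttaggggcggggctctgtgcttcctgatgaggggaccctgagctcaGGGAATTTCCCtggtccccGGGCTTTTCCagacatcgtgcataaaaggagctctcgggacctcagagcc
Cxcl10, chr5:92348890-92349139, minus strand: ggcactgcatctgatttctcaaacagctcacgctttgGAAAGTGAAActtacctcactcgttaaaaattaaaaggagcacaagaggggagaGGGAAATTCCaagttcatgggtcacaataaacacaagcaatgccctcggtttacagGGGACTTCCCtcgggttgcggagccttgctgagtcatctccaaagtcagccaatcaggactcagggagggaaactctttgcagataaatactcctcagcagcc

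RefSeq windows from 250 bases before to 50 bases after the gene start were found for 8 of 10 genes, the others being Cxcl5 and Cxcl16. The strict NF-kB type motif was present in 2 of these 8, Cxcl1 and Cxcl2, and in 1.63% of 32851 windows of all genes. Positions are counted back from the RefSeq start, with -1 as the base before it, and 4 further bases lie between the stretch shown and this start for Cxcl1 and 28 for Cxcl2, since the stretches stop where Gencode begins the gene. On this count Cxcl1 held GGGAATTTCC at -71 to -62 and, on the opposite strand, GGAAACACCC at -89 to -80. Cxcl2 held GGGAATTTCC at -97 to -88 and GGGCTTTTCC at -78 to -69, so that both genes had 2 strict matches. The loose NF-kB type motif, which overlaps the strict one at several of these places, was present in Cxcl1, Cxcl2, Cxcl9 and Cxcl10 and in 20.7% of all windows. The ISRE type motif was present in Cxcl10 alone, as GAAAGTGAAA at -213 to -204 on the opposite strand, and in 3.44% of all windows. TTCNNNGAA (GAS type) was found in 0 of 8 windows and in 8.3% of all. These matches are letters in a window, and binding was not measured here.

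First, the ligands of Cxcr2 were compared. Cxcl5, a neutrophil attractant that epithelial cells are known to make, had rlog values of 6.20, 7.97 and 7.59 in LFD mice 1 to 3, of 7.70, 9.48 and 9.43 in HFD mice 1 to 3, and of 7.48 and 6.67 in ob/ob mice 1 and 2. HFD mice 2 and 3 stood above all others, HFD mouse 1 lay within the LFD range, and both ob/ob mice lay below all HFD mice. The mean of HFD mice was higher than that of LFD mice by 1.62 (SE 0.58, adjusted p = 0.213, limma), and the mean of ob/ob mice was lower than that of HFD mice by 1.79 (SE 0.65, adjusted p = 1). Against LFD mice the ob/ob mean differed by -0.17 (95% interval -1.66 to 1.32). The sign of this ob/ob difference is not settled, since it was 0.18 without LFD mouse 2, 0.23 without ob/ob mouse 2 and 0.05 with a block for the replicate number. None of these Cxcl5 differences passed the adjusted threshold of 0.05.

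Cxcl2, which myeloid and other cells make on inflammatory stimuli, had rlog values of 3.21, 4.48 and 3.82 in LFD mice 1 to 3, of 3.65, 6.32 and 6.03 in HFD mice 1 to 3, and of 4.51 and 5.77 in ob/ob mice 1 and 2. HFD mice 2 and 3 and ob/ob mouse 2 were high, and HFD mouse 1 lay within the LFD range. The mean difference from LFD was 1.50 in HFD (SE 0.71, adjusted p = 0.278) and 1.31 in ob/ob mice (SE 0.80, adjusted p = 0.373, limma). Single mice moved both values, to 2.34 without HFD mouse 1 and to 0.67 without ob/ob mouse 2. Cxcl1, its close neighbor, had rlog values of 3.43, 4.21 and 3.59 in LFD mice, of 3.96, 5.68 and 3.88 in HFD mice, and of 3.70 and 4.31 in ob/ob mice. HFD mouse 2 was high and the other mice spanned less than 1 rlog unit, with a mean difference from LFD of 0.76 in HFD (95% interval -0.39 to 1.91) and 0.26 in ob/ob mice (95% interval -1.02 to 1.54). The HFD difference of Cxcl1 was 0.17 without HFD mouse 2, and the ob/ob difference was -0.05 without ob/ob mouse 2. Cxcl1 and Cxcl2 are paralogs, and reads that both could give are shared out by estimate, so their separate levels are uncertain. Both had a mean rlog value under 5, and the counting error at such low values is unknown.

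Cxcr2, the receptor of these ligands and a gene of mature neutrophils, had rlog values of 4.54, 6.19 and 5.09 in LFD mice, of 6.12, 6.93 and 7.39 in HFD mice, and of 6.00 and 5.57 in ob/ob mice. The HFD mice overlapped the LFD mice only through LFD mouse 2, and both ob/ob mice lay below all HFD mice. The mean difference was 1.54 for HFD against LFD (SE 0.47, adjusted p = 0.19), 0.51 for ob/ob against LFD (SE 0.53, adjusted p = 0.591) and -1.03 for ob/ob against HFD (SE 0.53, adjusted p = 1, limma). The value for ob/ob against LFD was 0.15 without LFD mouse 1 and 0.97 without LFD mouse 2. The mean of the 7 neutrophil markers in the table, among them S100a8 and S100a9, was between 4.76 and 5.20 in LFD, between 5.95 and 7.44 in HFD and between 5.76 and 6.23 in ob/ob mice. Ngp, Camp and Stfa2l1 of the same list were not analysed here. The part of neutrophil number in the Cxcr2 difference was not tested.

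Across the 8 mice, Cxcl5 and Cxcr2 had a Pearson's r of 0.91 (Spearman's rho 0.90), and r was 0.79 after the 2 mice most distant from the median Cxcr2 value were left out. Cxcr2 had an r of 0.90 with the neutrophil marker mean and of 0.91 with the duct epithelial marker mean, and these were 0.72 and 0.90 after the 2 mice most distant from the median of each marker mean were left out. Cxcl5 had an r of 0.94 with the mean of 7 duct epithelial markers (Spearman's rho 0.79). This r was 0.74 after the 2 mice most distant from the median duct mean were left out. With the neutrophil mean the r of Cxcl5 was 0.80, and 0.24 after the 2 mice most distant from that median were left out. The duct epithelial mean was 10.13 to 10.54 in LFD, 10.57 to 11.63 in HFD and 10.26 to 10.67 in ob/ob mice. The markers did not move together. Of the 7, 6 had a higher mean in HFD than in LFD mice, against 52.4% of all genes. In ob/ob mice these were 2, against 53.1%, and the median difference of the list was -0.07. These r values are descriptions over mice of 3 groups that share libraries and tissue composition. The part of duct cell or neutrophil number in the Cxcl5 and Cxcr2 differences was not tested. Cxcl1 and Cxcl2 had an r of 0.71 with each other.

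**Figure D1:**
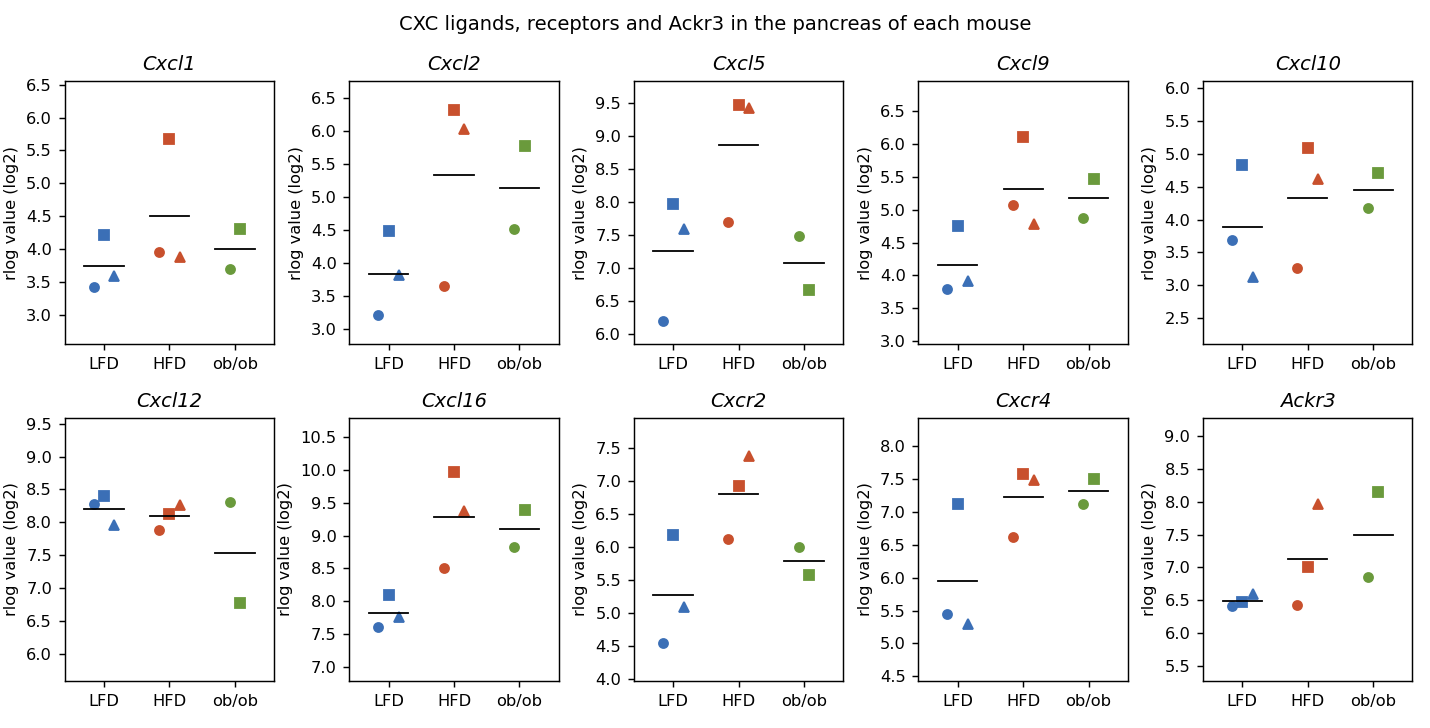
The rlog value (log2 scale, vertical axes, each spanning 4 units) of each of the 10 genes in each mouse, with LFD, HFD and ob/ob mice in columns. Points are mice, with the replicate number as circle, square or triangle, and lines are group means; Cxcl16 was 7.61 to 8.09 in LFD, 8.50 to 9.97 in HFD and 8.82 to 9.39 in ob/ob mice, while Cxcl12 was 7.96 to 8.40, 7.88 to 8.26 and 6.78 to 8.31.

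Next, the interferon-induced ligands were compared. Cxcl9 had rlog values of 3.80, 4.75 and 3.91 in LFD mice 1 to 3, of 5.07, 6.11 and 4.78 in HFD mice 1 to 3, and of 4.87 and 5.47 in ob/ob mice 1 and 2. Each of the 5 obese mice lay above each LFD mouse, although the gap between LFD mouse 2 and HFD mouse 3 was small. The difference of means from LFD was 1.16 in HFD (SE 0.43, adjusted p = 0.214) and 1.01 in ob/ob mice (SE 0.48, adjusted p = 0.283, limma), the former being 0.77 without HFD mouse 2.

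Cxcl10 had rlog values of 3.69, 4.83 and 3.13 in LFD mice, of 3.27, 5.08 and 4.62 in HFD mice, and of 4.18 and 4.71 in ob/ob mice. All 3 groups overlapped, and LFD mouse 2 was higher than each obese mouse but HFD mouse 2. The mean difference from LFD was 0.44 in HFD (SE 0.56, adjusted p = 0.671) and 0.56 in ob/ob mice (SE 0.63, adjusted p = 0.62, limma), and leaving out 1 mouse at a time gave 0.06 to 0.97 and 0.18 to 1.03. Cxcr3, the receptor of both ligands, was 3.56 to 3.86 in LFD, 3.24 to 3.75 in HFD and 4.05 to 4.15 in ob/ob mice. Cxcl9 was thus the gene of this axis whose obese mice all lay above LFD in both groups, at the nearest by 4.78 against 4.75. Each of these genes had a mean rlog value under 5, and the counting error at such low values is unknown.

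The mean of 6 T and NK cell markers was 3.18 to 4.52 in LFD, 3.51 to 3.88 in HFD and 3.83 to 4.12 in ob/ob mice, and LFD mouse 2 had the highest value. Over the 8 mice it had an r of 0.82 with Cxcl10 and 0.56 with Cxcl9. For Cxcl9 the r was higher with the macrophage (0.74), neutrophil (0.69), fibroblast (0.68) and duct epithelial (0.61) marker means, and -0.01 with the endothelial mean. The part of any of these cell types in the Cxcl9 and Cxcl10 values was not tested.

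Cxcl16, which macrophages, dendritic cells and epithelium are known to make, had rlog values of 7.61, 8.09 and 7.76 in LFD mice 1 to 3, of 8.50, 9.97 and 9.37 in HFD mice 1 to 3, and of 8.82 and 9.39 in ob/ob mice 1 and 2. Every obese mouse lay above every LFD mouse, HFD mouse 1 the nearest to them. The mean difference from LFD was 1.46 in HFD (SE 0.35, adjusted p = 0.177), which is 2.75-fold on the rlog scale, and 1.28 in ob/ob mice (SE 0.40, adjusted p = 0.206, limma). For the mean of both obese groups against LFD it was 1.37 (SE 0.32, adjusted p = 0.107, limma), the smallest adjusted p of the 10 genes in this comparison. The ob/ob mean differed from the HFD mean by -0.18 (95% interval -1.08 to 0.72).

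The mean of 8 macrophage markers was 8.19 to 8.69 in LFD, 8.87 to 9.79 in HFD and 9.81 to 10.39 in ob/ob mice, and its r with Cxcl16 was 0.84 over the 8 mice. Cxcl16 had like values of r with the neutrophil mean (0.88) and the fibroblast mean (0.86). The part of any of these cell types in the Cxcl16 difference was not tested. Cxcr6, the receptor of Cxcl16 on T and NKT cells, had rlog values of 4.56, 4.60 and 3.76 in LFD, of 4.13, 5.49 and 5.12 in HFD, and of 5.21 and 5.86 in ob/ob mice, a mean difference from LFD of 0.60 in HFD (adjusted p = 0.429) and 1.23 in ob/ob mice (adjusted p = 0.238, limma). Adam10 and Adam17, the proteases known to shed Cxcl16, had mean differences of 0.03 (SE 0.13) and 0.84 (SE 0.20, adjusted p = 0.106) between obese and LFD mice. Adam17 was 8.45 to 8.75 in LFD, 9.03 to 9.55 in HFD and 9.30 to 9.89 in ob/ob mice, and it was named after its values were seen.

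Then the Cxcl12 axis was compared. Cxcl12, which fibroblasts and endothelial cells make, had rlog values of 8.28, 8.40 and 7.96 in LFD mice, of 7.88, 8.12 and 8.26 in HFD mice, and of 8.31 and 6.78 in ob/ob mice. The LFD and HFD mice overlapped, and ob/ob mouse 2 was the one low mouse. The mean difference from LFD was -0.13 in HFD (95% interval -0.94 to 0.68) and -0.67 in ob/ob mice (SE 0.40, adjusted p = 0.359, limma). The ob/ob difference rests on 1 mouse, since it was 0.09 without ob/ob mouse 2. The mean of 7 fibroblast markers was 10.90 and 11.81 in ob/ob mice 1 and 2 and 9.74 to 10.16 in LFD mice. Its r with Cxcl12 was -0.55 over the 8 mice. The mean of 6 endothelial markers was 7.92 and 7.32 in ob/ob mice 1 and 2 and 7.32 to 7.92 in LFD mice, and its r with Cxcl12 was 0.71. The part of either cell type in the Cxcl12 values was not tested.

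Cxcr4, the signaling receptor of Cxcl12 on many leukocytes, had rlog values of 5.45, 7.12 and 5.29 in LFD mice, of 6.61, 7.57 and 7.49 in HFD mice, and of 7.12 and 7.50 in ob/ob mice. LFD mouse 2 lay among the obese mice and the other LFD mice lay below them. The mean difference from LFD was 1.27 in HFD (SE 0.49, adjusted p = 0.222) and 1.36 in ob/ob mice (SE 0.55, adjusted p = 0.25, limma). Over the 8 mice Cxcr4 had an r of 0.81 with the T and NK cell marker mean, and LFD mouse 2 was the highest LFD mouse in both. Its r was similar with the neutrophil, macrophage and fibroblast means (0.78 each). The part of any of these cell types in the Cxcr4 difference was not tested.

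Ackr3, the scavenging receptor, had rlog values of 6.41, 6.47 and 6.59 in LFD mice, of 6.43, 7.00 and 7.96 in HFD mice, and of 6.86 and 8.14 in ob/ob mice. LFD mice lay close together, HFD mouse 1 lay among them, and HFD mouse 3 and ob/ob mouse 2 were the high mice. Against LFD the mean difference was 0.64 in HFD (SE 0.43, adjusted p = 0.415) and 1.02 in ob/ob mice (SE 0.49, adjusted p = 0.286, limma), and these were 0.23 without HFD mouse 3 and 0.37 without ob/ob mouse 2. The mean of 16 acinar markers was 18.91 to 19.30 in LFD mice, 19.13, 17.05 and 15.13 in HFD mice 1 to 3, and 18.47 and 15.48 in ob/ob mice 1 and 2. Its r with Ackr3 was -0.97 over the 8 mice (Spearman's rho -0.76). This r was -0.85 after the 2 mice most distant from the median acinar value were left out. The acinar mean also had an r of -0.86 with Cxcl2 and -0.78 with Cxcl16, but 0.45 with Cxcl12. Ackr3 had an r of 0.89 with the fibroblast mean, and 0.87 after the 2 mice most distant from its median were left out. With the macrophage mean the r of Ackr3 was 0.74. With the acinar marker mean as a covariate the Ackr3 difference from LFD was -0.14 for HFD, 0.18 for ob/ob and 0.02 for both obese groups. The part of any of these cell types in the Ackr3 difference was not tested.

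**Figure D2:**
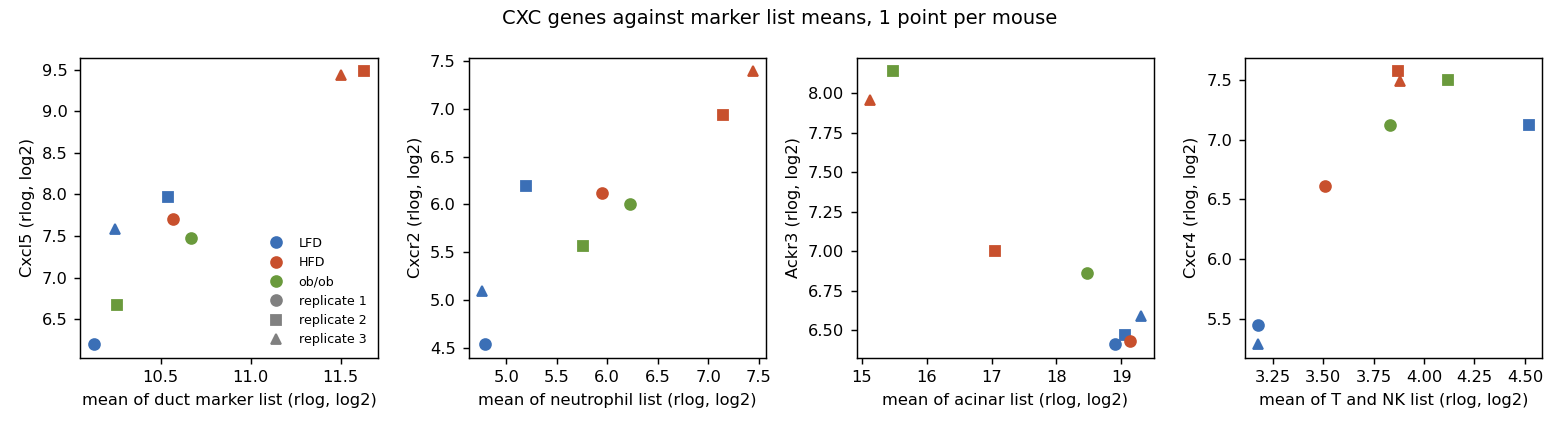
Each panel sets the rlog value of 1 gene (vertical axis, log2) against the mean of a marker list (horizontal axis, log2), with 1 point per mouse, colors for the groups and shapes for the replicate numbers. Cxcl5 is high where the duct mean is high (r 0.94), Cxcr2 where the neutrophil mean is high (r 0.90), Ackr3 where the acinar mean is low (r -0.97), and Cxcr4 where the T and NK cell mean is high (r 0.81). The neutrophil, macrophage and fibroblast means, not drawn for Cxcr4, had an r of 0.78 with it. Also not drawn, the r was 0.80 for Cxcl5 with the neutrophil mean and 0.91 for Cxcr2 with the duct mean. For Ackr3 with the fibroblast mean it was 0.89.

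Taking the 10 genes as a list, 9 had a higher mean in HFD than in LFD mice, against 52.4% of all genes. In ob/ob mice 8 had a higher mean than in LFD mice, against 53.1%. The genes were chosen with earlier results of these data known, so these counts are descriptions. The median difference of the list was 1.22 for HFD and 0.79 for ob/ob against LFD, where the median over all genes was 0.03 and 0.04. With the acinar marker mean as a covariate the median of the list was 0.76 and 0.19. In limma, 0 of 10 genes passed an adjusted p of 0.05 in each of the 4 comparisons, and 0 of 15047 genes did. At an unadjusted p under 0.05, HFD mice had 5 genes higher than LFD mice (Cxcl5, Cxcl9, Cxcl16, Cxcr2 and Cxcr4), against 11.5% of all genes, and ob/ob mice had 2 (Cxcl16 and Cxcr4), against 11.6%. For the mean of both obese groups there were 4 (Cxcl9, Cxcl16, Cxcr2 and Cxcr4), against 14.5%. Both obese groups are set against the same 3 LFD mice, so their counts are not independent. These counts of 5, 2 and 4 depend on single mice. For fits without a mouse, here and below, no share of all genes at this p is given beside them. Without LFD mouse 1 the counts were 2, 1 and 1, and without LFD mouse 3 they were 3, 1 and 1. Without HFD mouse 1 they were 7, 4 and 7. The first was 2 without HFD mouse 2 and 3 without HFD mouse 3, and the second was 0 without ob/ob mouse 2. Of all genes with an unadjusted p under 0.05, 57.9% were higher in HFD than in LFD mice and 48.4% after median centring, 61.9% and 52.3% for ob/ob, and 57.2% and 46.4% for both, and the same number of the 10 genes had a higher mean either way.

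Groups did not overlap, with all HFD mice higher than all LFD mice, for 2 of 10 genes (Cxcl9 and Cxcl16), against 12.9% of all genes. For ob/ob against LFD mice these were 4 (Cxcl2, Cxcl9, Cxcl16 and Ackr3), against 24.1%, and with all 5 obese mice together 2 (Cxcl9 and Cxcl16), against 9.4%. Between the obese groups, ob/ob mice were all lower than HFD mice for Cxcl5 and Cxcr2, 2 of 10 against 5.42%, and Cxcl5 was the 1 gene with an unadjusted p under 0.05, against 1.63% of genes that were lower. That count was 0 without HFD mouse 2, HFD mouse 3 or ob/ob mouse 2, and 2 without LFD mouse 2, HFD mouse 1 or ob/ob mouse 1. The median difference of the 10 genes for ob/ob against HFD was -0.19.

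**Figure D3:**
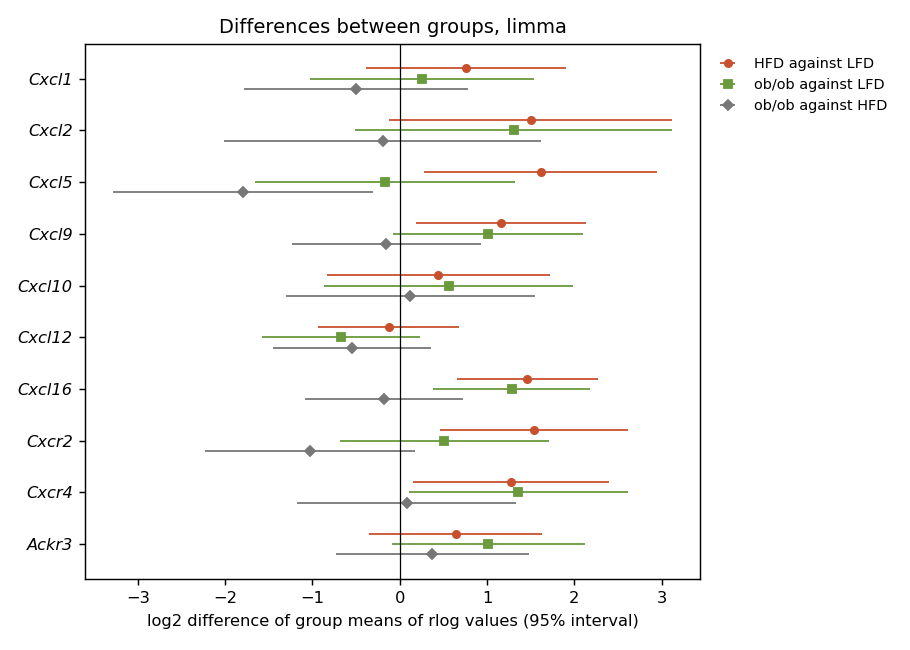
The log2 difference of group means (horizontal axis) of each of the 10 genes for HFD against LFD, ob/ob against LFD and ob/ob against HFD, with 95% intervals from limma as bars. Cxcl16 is at 1.46, 1.28 and -0.18, and Cxcl5 at 1.62, -0.17 and -1.79.

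HFD mouse 1 lay within the LFD range for 7 of the 10 genes, HFD mouse 2 for 1 and HFD mouse 3 for 3. For ob/ob mice 1 and 2 these were 6 and 3. The calls turn on HFD mouse 1, which was singled out after its values were seen. Leaving out the obese mouse most often within the LFD range favors larger differences. The adjusted p-values without it are therefore descriptions and no support for a difference. Without HFD mouse 1, limma called 18.7% of all genes for HFD against LFD, 10.8% of all genes as higher, and 4 of 10 CXC genes as higher. These were Cxcl16 (difference 1.85, adjusted p = 0.0137), Cxcl2 (2.34, adjusted p = 0.0209), Cxcl5 (2.20, adjusted p = 0.0238) and Cxcr2 (1.89, adjusted p = 0.0312). For the mean of both obese groups without this mouse 22.1% of genes were called, 12.8% as higher, and 3 CXC genes were called as higher, Cxcl16 (1.57, adjusted p = 0.0118), Cxcl2 (1.82, adjusted p = 0.0208) and Cxcr4 (1.47, adjusted p = 0.0421). With the acinar marker mean as a covariate the Cxcl16 difference was 1.05 in HFD (adjusted p = 0.382, limma) and 0.84 in ob/ob mice, and that of Cxcl2 was 0.45 and 0.19.

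**Figure D4:**
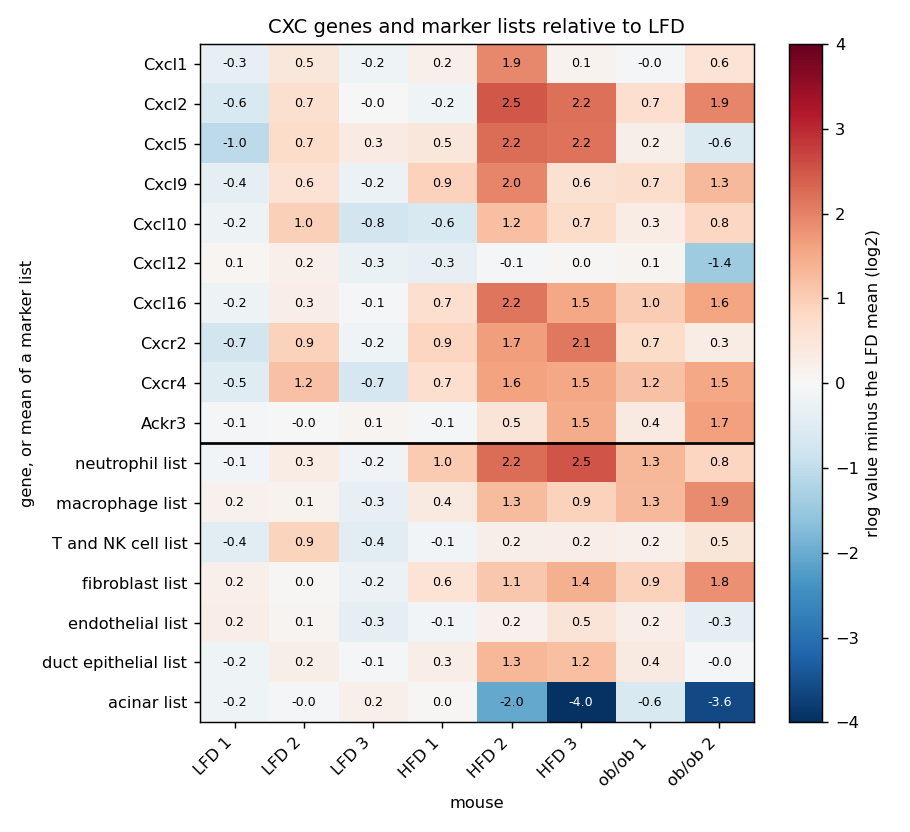
The rlog value of each of the 10 genes and of the marker list means (rows) in each of the 8 mice (columns), shown and printed as the difference from the mean of the 3 LFD mice on a log2 color scale. HFD mice 2 and 3 are above the LFD mean for most genes, HFD mouse 1 is nearer to it, and the acinar row is lowest in HFD mouse 3 and ob/ob mouse 2, at rlog means of 15.13 and 15.48.

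The other CXC genes in the table were 5 of 8 further ligands and 4 of 5 further receptors, and Cxcl3, Cxcl11, Cxcl15 and Cxcr1 were not analysed here. For the mean of both obese groups against LFD, 14.5% of all genes had a higher mean at an unadjusted p under 0.05. Among the further CXC genes these were 2 of 5 ligands (Cxcl14 and Pf4) and 2 of 4 receptors (Cxcr6 and Ackr1). Of them, 0 passed the adjusted threshold. Cxcl14, a ligand of epithelium and fibroblasts, had rlog values of 6.08, 6.15 and 5.27 in LFD, of 6.22, 7.84 and 7.75 in HFD, and of 7.77 and 7.54 in ob/ob mice. Each obese mouse exceeded each LFD mouse, HFD mouse 1 by a small margin, and the mean difference from LFD was 1.44 in HFD (adjusted p = 0.192) and 1.82 in ob/ob mice (adjusted p = 0.194, limma).

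Pf4, a ligand stored in platelets and also made by macrophages, had rlog values of 7.05, 6.67 and 6.68 in LFD, of 7.04, 7.61 and 6.52 in HFD, and of 7.94 and 8.41 in ob/ob mice. Both ob/ob mice lay above all LFD and HFD mice, as they did for Cxcr3, with HFD mouse 2 the nearest for Pf4. Its mean difference in ob/ob mice was 1.37 from LFD (adjusted p = 0.179) and 1.12 from HFD (adjusted p = 1, limma). Ppbp, a platelet gene whose products act on Cxcr2, was 3.46 to 4.07 in LFD, 3.73 to 5.49 in HFD and 4.23 to 4.49 in ob/ob mice, so it did not share the pattern of Pf4. Cxcl13, the B cell attractant, was 5.51 to 5.95 in LFD, 4.93 to 6.34 in HFD and 5.89 to 5.91 in ob/ob mice. Its receptor Cxcr5 was 2.40 to 4.64 in LFD, 3.06 to 3.34 in HFD and 2.84 to 3.23 in ob/ob mice. Cxcl17, a mucosal ligand, was 2.30 to 3.46 in LFD, 3.05 to 4.00 in HFD and 2.10 to 2.62 in ob/ob mice, and Ackr1, a decoy receptor of venules and red cells, was 3.10 to 3.40, 3.67 to 4.35 and 3.57 to 4.30. The Cxcl17 difference of ob/ob from HFD mice, which did not overlap, was -1.04 (adjusted p = 1, limma), and all obese mice lay above all LFD mice in Ackr1, with a mean difference of 0.75 (adjusted p = 0.151, limma).

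**Figure D5:**
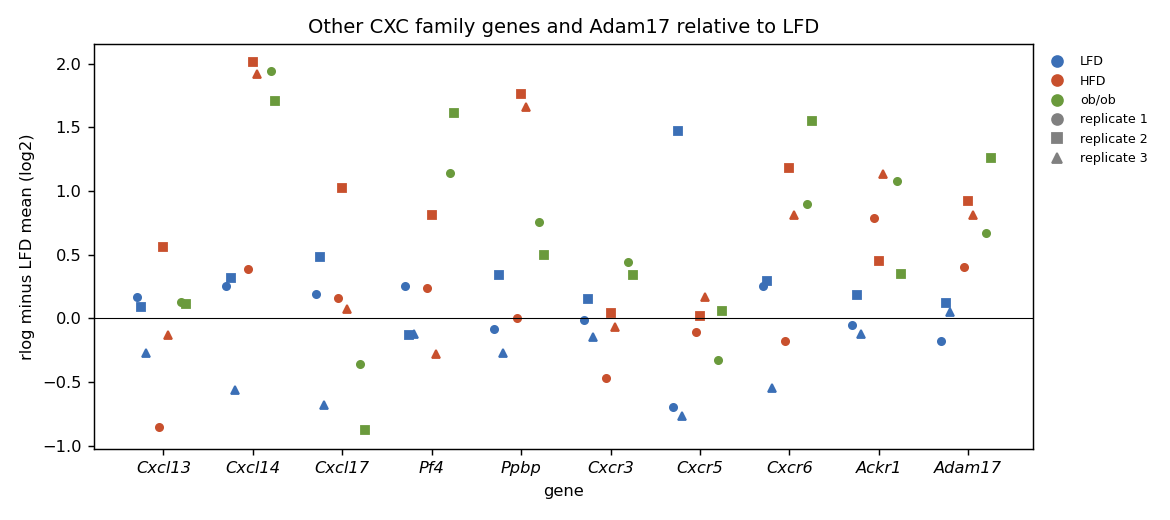
The rlog value minus the mean of the 3 LFD mice (vertical axis, log2) of the further CXC ligands and receptors and of Adam17, with 1 point per mouse, colors for the groups and shapes for the replicate numbers. Cxcl14 and Adam17 have all obese mice above all LFD mice, and Pf4 has both ob/ob mice, at rlog values of 7.94 and 8.41, above all others.

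Genes that act on these chemokines were counted in 3 lists for the mean of both obese groups against LFD, where 14.5% of all genes were higher at an unadjusted p under 0.05. Of 5 genes that cleave or shed chemokines, 3 were higher at this p. The largest difference was that of Mmp9, a gelatinase that trims Cxcr2 ligands, with 5.94, 6.34 and 5.55 in LFD, 6.83, 7.94 and 8.65 in HFD, and 7.10 and 7.58 in ob/ob mice (difference 1.63, adjusted p = 0.107). Adam10 was the lowest of that list. Of 11 inducers and repressors of CXC ligands in the table, 3 were higher, with the largest difference in Il1b, the cytokine that induces Cxcl1 and Cxcl2 (1.55, SE 0.41, adjusted p = 0.108), and the smallest in Rela, a subunit of NF-kB (0.07, SE 0.16). Il1b was 6.23 to 7.50 in LFD, 7.84 to 9.55 in HFD and 7.96 to 8.10 in ob/ob mice, so each obese mouse lay above each LFD mouse. Of 14 genes of receptor signaling, 5 were higher, from Gnai2, the G protein subunit that couples these receptors (0.88, SE 0.24, adjusted p = 0.11, limma), down to Grk2, the kinase that turns them off (-0.05, SE 0.18).

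The genes whose rlog values over the 8 mice were most like each chemokine gene were read by Pearson's r, each with n = 8 and picked as the 3 highest of 15047, which makes high values likely. For Cxcl9 they were H2-Aa (0.973), an MHC class II chain, Cd52 (0.969) and Batf (0.96), and for Cxcl10 they were Gimap4 (0.983), Abi1 (0.972) and Cstf2t (0.966). Cxcl16 was most like Stmn1 (0.995), Hist1h3h (0.989) and Ifngr1 (0.989), and Cxcr4 most like Rhoh (0.992), Tnfrsf13b (0.989) and Ifi209 (0.988). For Cxcl5 the nearest were Gcnt3 (0.973), Vnn1 (0.965) and Ncmap (0.961), for Cxcr2 they were Ctse (0.976), Rhbdl2 (0.973) and Stra6 (0.969), and none of the 3 was shared. Cxcl2 was most like Kcnn4 (0.99), Msln (0.987) and Ift43 (0.984), Cxcl1 like Tgtp1 (0.989), Rac3 (0.976) and Dedd (0.95), Cxcl12 like Tmem102 (0.966), Pik3c2b (0.957) and Sc5d (0.954), and Ackr3 like Usp37 (0.985), Nptx1 (0.985) and Kpna2 (0.984).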

How the data were processed

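Mice were grouped by the sample labels, and samples with different replicate numbers were taken as different mice, so p-values measure the spread between these samples. Total RNA of the pancreas was sequenced in paired-end mode by the authors, who used FastQC for read quality, Salmon 0.11.3 for Gencode transcripts of GRCm38 and tximport for gene totals. The authors deposited rlog values made with DESeq2 1.22.2, which are on a log2 scale and normalized for library size, for 15047 genes. The rlog transformation shrinks differences of genes with few reads. Counts were not used here, so no counting error is given. The filter behind the 15047 genes is not given in the sources used here.

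Group means were compared with limma 3.58.1 in R 4.3.3 on all 15047 genes and 8 mice, with 1 mean per group, the empirical Bayes trend and Benjamini-Hochberg adjustment over all genes. All p-values are two-sided. The fit was tested on simulated data. The CXC genes, the further lists and the marker lists were chosen with earlier results of these data known. All CXC genes of the table are named, and of each further list the gene with the largest difference each way in the mean of both obese groups against LFD. The 3 most similar genes were taken by Pearson's r. Tables and figures were made in Python 3.11.15. Positions of genes were read from the Gencode M21 annotation of GRCm38, in which 10 of 10 genes matched. Alternatives were scaling, a filter on low values, array weights, a fit of the compared groups alone, a block for the replicate number, the acinar marker mean as covariate, and leaving out each mouse.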

Additional observations from a re-analysis of the deposited data

How the results depend on the processing

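Median centring, quantile normalization, a fit without the variance trend and a filter at a mean rlog of 5, which drops Cxcl1, Cxcl2, Cxcl9 and Cxcl10, moved no count of calls by over 1.5 times and turned no direction of a CXC gene. With array weights, a fit that ended with a warning and gave HFD mouse 2 a weight of 9.36 and HFD mouse 1 one of 0.273, 6656 genes were called for HFD against LFD, 7 of them CXC genes (9 at an unadjusted p under 0.05), and 4286 for both obese groups against LFD, 3 of them CXC genes. For ob/ob against HFD 3 CXC genes had an unadjusted p under 0.05 with these weights, and Cxcl10 and Cxcr4 turned to -0.56 and -0.23. A fit of the compared groups alone, which gives no value for both obese groups together, called 1 gene for HFD and 38 for ob/ob against LFD, with 5 CXC genes at an unadjusted p under 0.05 in the latter. No share of all genes at an unadjusted p under 0.05 is given for these fits, nor for those below. Their CXC counts at that p therefore have no background beside them.

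With the acinar marker mean as covariate, the CXC genes at an unadjusted p under 0.05 were 2 for HFD, 1 for ob/ob and 1 for both against LFD, and 1 gene was called in each of ob/ob against HFD, both against LFD, and ob/ob against LFD. Cxcl10 turned to -0.14, -0.06 and -0.10 in these 3 comparisons with LFD, and Cxcl12 to 0.10 and Ackr3 to -0.14 for HFD. The causes of these shifts were not tested.

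Replicate numbers do not mark shared animals. Deviations of each gene from its group mean were correlated across genes between same-numbered mice, and the result was mixed. The r was -0.06, 0.113 and -0.281 between LFD and HFD and -0.097 and 0.128 between LFD and ob/ob. Between HFD and ob/ob it was 0.592 and 0.303, but also 0.44 for the differently numbered HFD mouse 3 and ob/ob mouse 2. The deviations of 2 ob/ob mice always mirror each other. With a replicate block 0 genes were called, 5 CXC genes had an unadjusted p under 0.05 for ob/ob against LFD, and the differences of Cxcl5 for ob/ob against LFD (0.05) and Cxcr4 for ob/ob against HFD (-0.02) turned.

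When each mouse was left out in turn, the calls were 0 to 2812 genes for HFD, 0 to 89 for ob/ob and 0 to 3326 for both against LFD, and 0 to 1 for ob/ob against HFD, with 0 to 4, 0 to 0, 0 to 3 and 0 to 0 CXC genes. CXC genes at an unadjusted p under 0.05 were 2 to 7, 0 to 4, 1 to 7 and 0 to 2. Differences that turned were, for ob/ob against LFD, Cxcl1 (-0.05 to 0.56), Cxcl5 (-0.70 to 0.23) and Cxcl12 (-1.44 to 0.09), and for ob/ob against HFD, Cxcl1 (-0.82 to 0.09), Cxcl2 (-1.04 to 0.44), Cxcl9 (-0.45 to 0.24), Cxcl10 (-0.40 to 0.50), Cxcl12 (-1.31 to 0.22), Cxcl16 (-0.57 to 0.17), Cxcr4 (-0.22 to 0.28), Ackr3 (-0.27 to 1.01) and the median of the 10 genes (-0.61 to 0.21). Where 1 ob/ob mouse remained, it was assumed to vary like the other groups. Depth is unknown, so counting error at low values could not be set.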
